A study of Mus musculus with 6 samples.

Results

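The 10 genes described here are Prl3d1, Prl3d2, Prl3d3, Prl2c2, Prl2c3, Prl2c5, Prl8a9, Prl7b1, Prl2a1 and Prl6a1, which belong to the prolactin family of secreted hormones. They are 10 of the 26 prolactin family genes annotated on mouse chromosome 13, among 48526 genes counted. They were selected on their counts in Setd2-mutant against control kidney cultures in these same libraries, so their levels below are a description and carry no test. RNA-seq was done on 6 primary cultures labelled as mouse renal tubular epithelium. The 3 KO cultures came from Setd2(F/F)Ksp-Cre+ mice and the 3 WT cultures from Setd2(F/F) mice, so both groups carried the floxed alleles and Cre was present in KO only. The Ksp promoter, that of Cdh16, drives Cre in epithelium of the kidney tubule, so deletion is limited to cells that use it, and Cre itself cannot be told apart from loss of Setd2. All mice were 4 to 5 weeks old, and kidney cortex was digested and plated, with no step that selects tubular cells named, with both 20 ng/ml EGF and 100 nM hydrocortisone in the medium. The labels do not say that each replicate is a separate animal, so p-values measure the spread between these samples, which may be technical.

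In rodents the prolactin family has grown into a large gene cluster, and most of its genes are used in the placenta and decidua, with few uses in other tissues. Prl3d genes encode placental lactogen I, the hormone by which trophoblast giant cells of early to mid gestation act on the prolactin receptor, which signals through Jak2 and Stat5. Prl2c genes encode the proliferins, secreted glycoproteins of the same giant cells that promote growth of blood vessels, and proliferin RNA is also known from growth factor-stimulated mouse fibroblast lines. In other work AP-1 and GATA factors act on the Prl3d1 promoter, and AP-1 and the glucocorticoid receptor act on a proliferin promoter.

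Promoter windows of 6 genes are shown because they let the near-identical copies be compared by eye and hold the letters that AP-1 and GATA factors are known to bind. Each runs from 250 bases before to 50 bases after the RefSeq start on GRCm38.p6, is written 5′ to 3′ on the gene's own strand, and has matches to AP-1 (TGANTCA) and to GATA (those 4 letters with A or T before and A or G after them), searched on both strands, in capitals. The windows are Prl3d1 at chr13:27093939-27094238 (+ strand), Prl2c3 at chr13:12800030-12800329 (- strand), Prl2c5 at chr13:13182466-13182765 (+ strand), Prl7d1 at chr13:27716688-27716987 (- strand), Prl8a9 at chr13:27564557-27564856 (- strand) and Prl6a1 at chr13:27312365-27312664 (+ strand).
Prl3d1: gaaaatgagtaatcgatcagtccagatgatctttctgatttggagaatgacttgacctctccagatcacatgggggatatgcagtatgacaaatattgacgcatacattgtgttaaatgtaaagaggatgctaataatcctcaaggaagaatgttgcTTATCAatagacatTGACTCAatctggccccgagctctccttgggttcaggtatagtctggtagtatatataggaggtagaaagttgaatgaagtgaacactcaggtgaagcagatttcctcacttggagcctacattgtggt
Prl2c3: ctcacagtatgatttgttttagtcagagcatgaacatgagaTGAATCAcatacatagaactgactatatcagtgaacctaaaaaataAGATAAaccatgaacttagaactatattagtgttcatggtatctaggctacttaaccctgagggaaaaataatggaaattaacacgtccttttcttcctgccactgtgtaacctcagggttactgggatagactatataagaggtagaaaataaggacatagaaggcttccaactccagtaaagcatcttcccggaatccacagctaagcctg
Prl2c5: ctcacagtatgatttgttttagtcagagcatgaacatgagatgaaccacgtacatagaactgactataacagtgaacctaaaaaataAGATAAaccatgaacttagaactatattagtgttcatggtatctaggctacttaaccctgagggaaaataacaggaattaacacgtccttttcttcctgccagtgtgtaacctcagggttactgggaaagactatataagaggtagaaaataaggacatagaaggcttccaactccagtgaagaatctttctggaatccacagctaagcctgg
Prl7d1: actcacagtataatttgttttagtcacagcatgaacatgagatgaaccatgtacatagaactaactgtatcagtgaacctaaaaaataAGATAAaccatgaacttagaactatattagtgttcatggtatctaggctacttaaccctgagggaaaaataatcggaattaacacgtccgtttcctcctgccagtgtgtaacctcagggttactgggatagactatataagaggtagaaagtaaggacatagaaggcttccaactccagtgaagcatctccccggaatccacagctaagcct
Prl8a9: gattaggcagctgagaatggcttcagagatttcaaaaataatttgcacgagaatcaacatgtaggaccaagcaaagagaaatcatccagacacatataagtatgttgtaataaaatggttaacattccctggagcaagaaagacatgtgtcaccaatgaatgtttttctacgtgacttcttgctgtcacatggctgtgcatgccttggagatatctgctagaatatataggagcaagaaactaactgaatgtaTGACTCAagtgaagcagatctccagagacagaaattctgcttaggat
Prl6a1: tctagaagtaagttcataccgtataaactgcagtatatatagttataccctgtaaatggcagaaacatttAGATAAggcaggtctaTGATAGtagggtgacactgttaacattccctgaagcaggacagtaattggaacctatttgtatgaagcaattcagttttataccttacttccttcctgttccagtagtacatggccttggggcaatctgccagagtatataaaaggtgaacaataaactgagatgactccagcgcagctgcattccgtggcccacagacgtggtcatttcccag

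The RefSeq table held windows for 8 of the 10 genes, Prl2c2 and Prl7b1 being the other two. The AP-1 letters were in 5 of these 8 windows, against 7.81% of 32851 windows of the same length, and the GATA letters in 6 of 8, against 29.8%. The 3 Prl3d windows each hold both and are 97.9% to 99.7% identical to one another, so they are not independent of one another. In Prl3d1 the AP-1 letters begin 79 bases and the GATA letters 93 bases before the start. The windows of Prl2c3 and Prl2c5 are 96% identical and share the GATA letters 163 bases before the start, while the AP-1 letters, 209 bases before the start of Prl2c3, are not in the Prl2c5 window. Prl7d1, a proliferin-related gene outside the 10, has a window 95% identical to that of Prl2c3, with the GATA and without the AP-1 letters. Prl8a9 has the AP-1 letters just after its start, Prl6a1 has GATA letters at 2 places, and the Prl2a1 window has neither motif. A match describes letters only and is not a bound site.

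The libraries held 89951455, 95065416 and 96917379 counted reads in KO and 86078636, 106974842 and 95844348 in WT, and 17571 genes passed the filter on low counts. edgeR's quasi-likelihood test with Benjamini-Hochberg adjustment called 3698 of these (21.0%) at an adjusted p below 0.05. Of all tested genes, 12.0% were called higher and 9.08% lower in KO, and the median log2 fold change was -0.01. Levels are given as CPM, read counts scaled to library size with TMM factors. Setd2 stood at 163, 154 and 158 CPM in KO, against 185, 168 and 152 CPM in WT (adjusted p = 0.481 by edgeR's quasi-likelihood test), and a count over the whole gene does not check the loss of floxed exons. Xist stood at 0.386, 507 and 606 CPM in KO and at 0.683, 0.348 and 0.642 CPM in WT, and Ddx3y, from the Y chromosome, at 59.7, 0.0840 and 0.0815 CPM in KO and 66.9, 63.4 and 51.0 CPM in WT. KO replicates 2 and 3 therefore stand apart from all WT libraries in these sex-linked genes, and only KO replicate 1 can be set against WT within the Xist-negative libraries.

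All 10 genes passed the filter. A gene that passes through the group where it is high had to differ, so that count supports nothing. In 9 of the 10 every KO library lay above every WT library, a pattern seen in 20.6% of all tested genes, and in Prl6a1 every KO library lay below every WT library, as in 21.3% of tested genes. Nothing is read from these shares, since the genes were selected on this contrast. KO replicate 1 had at least 2 times the mean of KO replicates 2 and 3 in 8 of the 10, against 0.672% of tested genes, and it is also the Xist-negative KO library. Sex and replicate cannot be told apart there. With a term for Xist-positive libraries, which sets KO replicate 1 against WT, the fitted log2 fold change was 8.72 for Prl3d1 and 6.43 for Prl2c3, against 7.75 and 5.55 without the term. In bulk RNA, more cells that make a transcript and more transcript per cell cannot be told apart either.

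**Figure D1:**
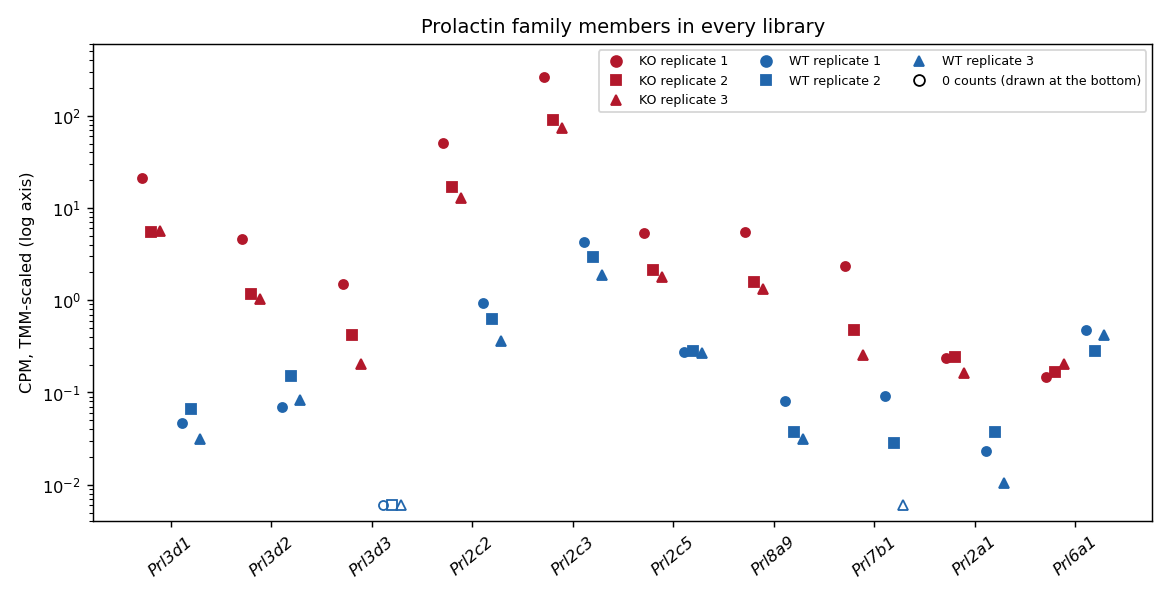
Level of each of the 10 genes in every library, in TMM-scaled CPM on a log axis, with KO in red left of WT in blue and the replicate given by the marker. Open markers at the bottom are libraries with 0 counts. KO lies above WT in 9 genes and below it in Prl6a1, and KO replicate 1 is the highest library in 8 of the 9.

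The placental lactogen I genes, of the main prolactin cluster, were close to undetected in WT and readily counted in KO. Prl3d1 (ENSMUSG00000057170, chr13:27094190-27100258, + strand) had 1846, 524 and 558 reads in KO libraries and 4, 7 and 3 reads in WT libraries. That is 10.7 ± 8.86 CPM in KO and 0.0478 ± 0.0175 CPM in WT (SD, n = 3 each), a ratio of means of 224. The lowest KO library was 83.5 times the highest WT library, and without KO replicate 1 the ratio was 117. With 14 WT reads in all, the counting interval of the pooled ratio ran from 128 to 393.

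Prl3d2 (ENSMUSG00000062737, chr13:27121698-27127555, + strand) had 403, 110 and 102 reads in KO and 6, 16 and 8 reads in WT. Its mean was 2.25 ± 2.01 CPM in KO and 0.101 ± 0.0435 CPM in WT (SD, n = 3 each), a ratio of 22.3 that was 10.9 without KO replicate 1. Prl3d3 (ENSMUSG00000062201, chr13:27156790-27162593, + strand) had 131, 40 and 20 reads in KO and 0 in each WT library. With a floor of 3 counts over the WT group, Prl3d3 was at least 65.4-fold higher in KO, and at least 29.9-fold without KO replicate 1, 41.4-fold without WT replicate 2 and 43.5-fold without WT replicate 3. In both genes KO replicate 1 held most of the KO reads, and the groups did not overlap.

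The proliferins, from a cluster some distance away on the same chromosome, included the most abundant of the 10, Prl2c3 and Prl2c2. Prl2c3 (ENSMUSG00000056457, chr13:12790816-12800079, - strand) had 260, 90.2 and 74.2 CPM in KO and 4.25, 2.94 and 1.88 CPM in WT, from 22941, 8590 and 7281 reads in KO and 367, 312 and 182 reads in WT. Its mean was 141 ± 103 CPM in KO and 3.02 ± 1.18 CPM in WT (SD, n = 3 each), a ratio of 46.8. Without KO replicate 1 the ratio was 27.2, and the lowest KO library was 17.4 times the highest WT library.

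Prl2c2 (ENSMUSG00000079092, chr13:12996125-13005383, - strand) had 50.6, 17.1 and 12.7 CPM in KO and 0.938, 0.631 and 0.362 CPM in WT. Its mean was 26.8 ± 20.7 CPM in KO and 0.644 ± 0.288 CPM in WT (SD, n = 3 each), a ratio of 41.6 that was 23.1 without KO replicate 1. Prl2c5 (ENSMUSG00000055360, chr13:13182715-13191923, + strand) had 5.39, 2.11 and 1.77 CPM in KO and 0.278, 0.282 and 0.269 CPM in WT. Among the proliferins it had the smallest ratio, 11.2, or 7.02 without KO replicate 1, and its WT libraries differed least (SD 0.00668 CPM, n = 3). All 3 proliferins had groups that did not overlap.

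These copies are so alike that reads may be divided among them unevenly, and how the authors counted reads that fit several genes is not given in the sources used here. Transcripts of the Prl3d copies are 98.4% to 98.5% identical, those of Prl2c2 and Prl2c3 99.5%, and those of Prl2c5 96.4% to 96.6% identical to these. Of the distinct 50-base stretches, 55.6% in Prl3d1, 68.2% in Prl3d2, 67.5% in Prl3d3, 83.3% in Prl2c2, 60% in Prl2c3 and 35.1% in Prl2c5 also occur in another gene. Values of single copies are therefore uncertain, whereas sums over the copies do not depend on how reads were divided among them. The sums would still lack any reads left uncounted because they fit several genes. The Prl3d sum was 27.0, 7.08 and 6.93 CPM in KO and 0.116, 0.217 and 0.114 CPM in WT, a ratio of means of 91.9 (log2 6.52). The Prl2c sum was 316, 109 and 88.6 CPM in KO and 5.47, 3.85 and 2.52 CPM in WT, a ratio of 43.4 (log2 5.44).

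The make-up of the sums also differed between the groups, as assigned by the authors' counting. Prl2c3 held 82.3% to 83.7% of the proliferin reads in KO libraries and 74.9% to 77.8% in WT libraries. Prl2c5 held 1.70% to 2.0% in KO libraries and 5.08% to 10.7% in WT libraries, where the exact Clopper-Pearson 95% intervals reached from 3.28% to 15.3%. Within Prl3d, Prl3d1 held 77.6% to 82.1% of reads in KO libraries and 27.3% to 40.0% in WT libraries, and Prl3d2 held 60% to 72.7% in WT libraries. The WT shares rest on 10, 23 and 11 reads, so that their intervals span 6.02% to 73.8% for Prl3d1. These intervals cover counting error only.

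**Figure D2:**
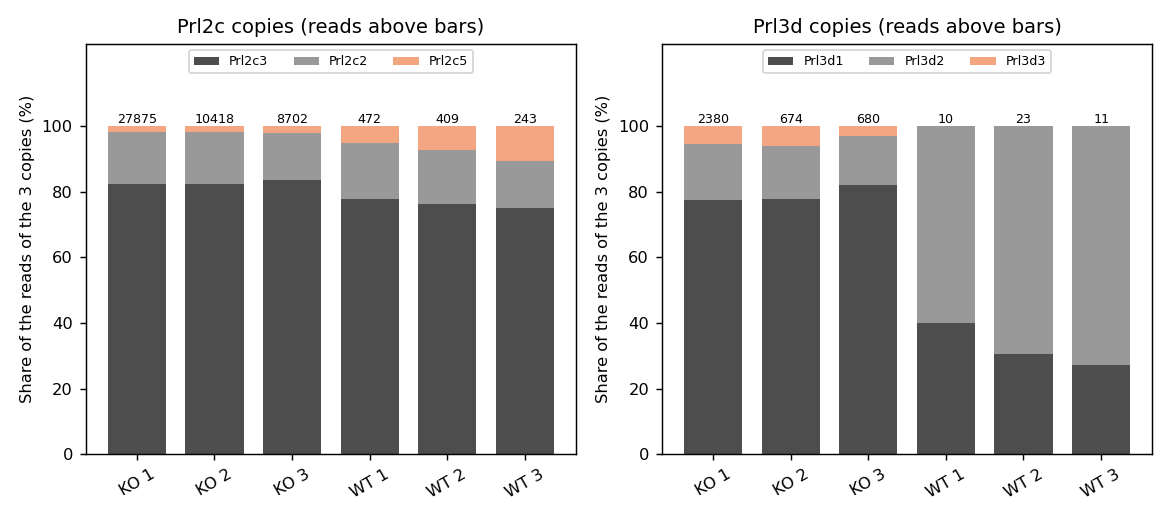
Share in percent of the reads of each copy within the proliferins (left) and the placental lactogen I genes (right), in each of 3 KO and 3 WT libraries, with the summed reads above each bar. Prl2c5 holds 1.70% to 2.0% in KO and 5.08% to 10.7% in WT, and the Prl3d bars of WT rest on 10, 23 and 11 reads.

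The other 4 genes share few or no 50-base stretches with another gene, 9.37% in Prl6a1 and 0 in the rest, so their counts do not depend on such copies. Prl8a9 (ENSMUSG00000006490, chr13:27557995-27564606, - strand), a prolactin-like hormone of the placenta, had 479, 149 and 129 reads in KO and 7, 4 and 3 reads in WT. Its mean was 2.77 ± 2.31 CPM in KO and 0.0499 ± 0.0272 CPM in WT (SD, n = 3 each), a ratio of 55.5, or 28.8 without KO replicate 1, and the counting interval of the pooled ratio ran from 32.9 to 102. The groups were far apart, with the lowest KO library at 16.2 times the highest WT library.

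Prl7b1 (ENSMUSG00000021347, chr13:27601819-27610582, - strand), known from trophoblast cells, had 206, 45 and 25 reads in KO and 8, 3 and 0 reads in WT. Its mean was 1.02 ± 1.14 CPM in KO and 0.0403 ± 0.0475 CPM in WT (SD, n = 3 each), and its ratio of 25.3 was 9.02 without KO replicate 1. Of the 10 genes it had the widest gap within KO, replicate 1 being 6.42 times the mean of the other two. The counting interval of its pooled ratio ran from 14.2 to 52.2. The fitted log2 fold change, 4.68, was 5.99 without WT replicate 1, which held 8 of the 11 WT reads.

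Prl2a1 (ENSMUSG00000022886, chr13:27801654-27808729, + strand) had 21, 23 and 16 reads in KO and 2, 4 and 1 reads in WT. Its ratio of means was 9.03 with a counting interval of 4.02 to 22.8, and KO replicate 1 was 1.18 times the mean of the other KO libraries. Its KO libraries ranged over 0.163 to 0.242 CPM and none stood far above the rest. Prl6a1 (ENSMUSG00000069259, chr13:27312627-27319252, + strand) had 13, 16 and 20 reads in KO and 41, 30 and 41 reads in WT. Its mean was 0.173 ± 0.0285 CPM in KO and 0.394 ± 0.0998 CPM in WT (SD, n = 3 each), a ratio of 0.439 with a counting interval of 0.314 to 0.634. It was the one gene of the 10 that was lower in KO, with KO replicate 1 at 0.793 times the mean of the other KO libraries. An annotated gene on the same strand, Gm11357, shares 153 exon bases with Prl6a1 and had 0 counts.

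Per kilobase of exon, the order of mean KO levels was Prl2c3 (104 CPM per kb), Prl2c2 (24.6), Prl3d1 (12.2), Prl8a9 (2.94), Prl3d2 (2.63), Prl2c5 (2.63), Prl7b1 (1.10), Prl3d3 (0.818), Prl2a1 (0.242) and Prl6a1 (0.149). Prl2c3 had 54.5 to 191 CPM per kb over the KO libraries and lay above the 11.7 to 46.4 CPM per kb of Prl2c2. The KO ranges of neighbours in this order overlapped for Prl2c2 and Prl3d1 and for each step from Prl8a9 to Prl2a1. They did not overlap between Prl3d1 and Prl8a9 or between Prl2a1 and Prl6a1. Ranges ignore that the genes share libraries. Within KO replicates 1, 2 and 3 Prl2c2 had 46.4, 15.7 and 11.7 CPM per kb and lay above Prl3d1, at 23.9, 6.29 and 6.50. Of the steps from Prl8a9 to Prl2a1, only that from Prl3d2 to Prl2c5 did not hold within every KO library. The means rest partly on KO replicate 1: in KO replicates 2 and 3 Prl2c5, at 1.79 and 1.51 CPM per kb, lay above Prl8a9, at 1.66 and 1.39, and Prl3d2, at 1.35 and 1.21. In WT the order opened with Prl2c3 (2.22 CPM per kb), Prl2c2 (0.591) and Prl6a1 (0.340), followed by Prl2c5 (0.235) and Prl3d2 (0.118), so Prl6a1 had the lowest mean of the 10 in KO and the third highest in WT, where its range overlapped that of Prl2c2.

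**Figure D3:**
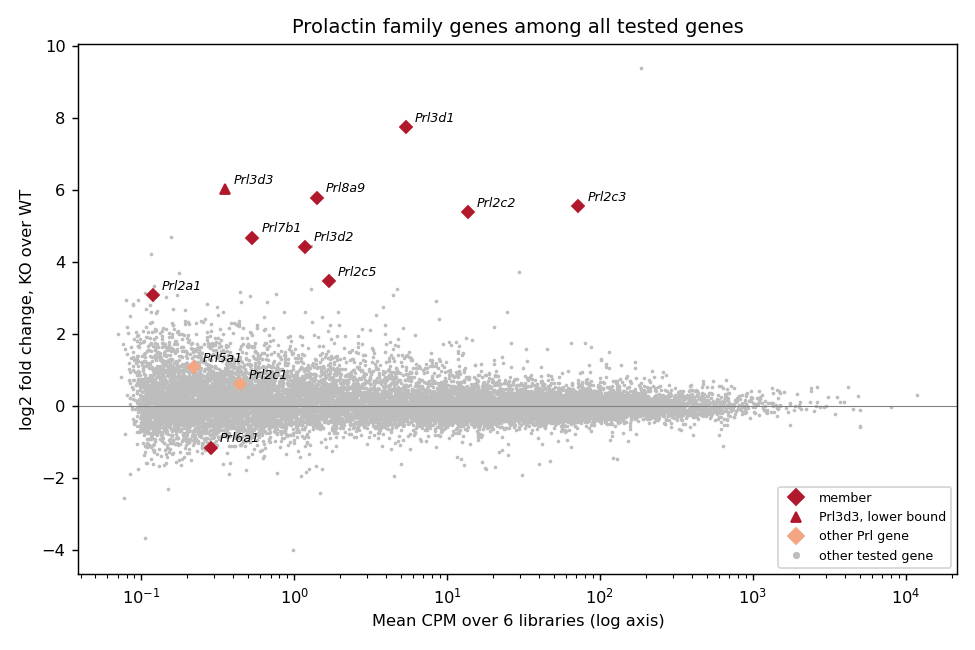
Log2 fold change, KO over WT, against the mean CPM over 6 libraries on a log axis, for all tested genes in grey and the prolactin family in red (the 10 genes) and orange (other family genes). Prl3d3 is drawn at its lower bound of 6.03, and 9 of the 10 lie above 0 while Prl6a1 lies below it.

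Of the remaining 16 family genes, the filter kept 2, which were tested for the same contrast. Of those not tested, 8 had at least 1 read and 6 had none. Prl7a1 had the most reads of these, 36 in KO and 13 in WT, while Prl3a1, Prl8a2 and Prl8a6 had reads in WT only. Prl5a1, another placental prolactin-like gene, had 0.329, 0.284 and 0.285 CPM in KO and 0.151, 0.169 and 0.104 CPM in WT, and it rose (log2 fold change 1.07 ± 0.31 SE, adjusted p = 0.0307, edgeR quasi-likelihood with Benjamini-Hochberg). Leaving out any 1 library lost that call, at adjusted p from 0.0524 to 0.103 by edgeR. So did a term for Xist-positive libraries, which sets KO replicate 1 alone against WT, at a log2 fold change of 1.21. WT replicate 3 of Prl5a1 lay just under the level of the filter. The gene therefore passed only with its KO libraries, where it is high, and its p-value supports nothing. Prl2c1 had 0.760, 0.483 and 0.346 CPM in KO and 0.486, 0.358 and 0.197 CPM in WT, with overlapping groups and an adjusted p of 0.25 by edgeR. Prl7d1, whose window is shown above, had 11, 15 and 9 reads in KO and 7, 2 and 0 reads in WT and stayed below the filter.

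The family lies in 2 places on chromosome 13, with 3 of the genes in the Prl2c cluster and 7 in the main cluster of 23 family genes. Between Prl3d3 and Prl8a9 lie 8 family genes, of which 7, all except Prl6a1, had no more than 4 reads in all 6 libraries together. Prl8a1, between Prl8a9 and Prl7b1, had 1 read. Genes at 0 in all libraries include Prl3b1, which encodes placental lactogen II, the hormone of later gestation.

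Genes around the clusters were compared to see whether the difference reached beyond the family. Of the 40 nearest tested genes outside the family, 10 on each side of each cluster, 2 rose and 4 fell, which is 15% against 21.0% of all tested genes, and their median log2 fold change was -0.04. Past the end of the main cluster they started 658 to 3012 kb from the start of Prl2a1, the last of the 10 genes there. Past the Prl2c cluster they started 49.4 to 881 kb from the start of Prl2c5. On the other side of each cluster they also reached distances in the Mb range. The 15% therefore describes wide regions, and whether the difference ended at the family was not tested. Nid1, which encodes the basement membrane protein nidogen-1 and starts 255 kb from the start of Prl2c5, had 291, 285 and 283 CPM in KO and 169, 158 and 162 CPM in WT (log2 fold change 0.81 ± 0.07 SE, adjusted p = 3.04e-05, edgeR quasi-likelihood). Agtr1a, an angiotensin II receptor, averaged 0.285 ± 0.141 CPM in KO and 0.11 ± 0.0468 CPM in WT (SD, n = 3 each), with every KO library above every WT library and an adjusted p of 0.0464 by edgeR. That call was lost on leaving out KO replicate 1 or 3 or WT replicate 2 or 3, at adjusted p from 0.0858 to 0.206. Agtr1a passed the filter on low counts only through its KO libraries, where it is high, so its p-value and the gap between the groups support nothing. B3galnt2, Dcdc2a, Uqcrfs1 and Exoc2 fell by 0.41, 0.35, 0.42 and 0.25 on the log2 scale, and all but B3galnt2 lost the call without KO replicate 1, at adjusted p from 0.0705 to 0.190 by edgeR, and also without 1 or more of the other libraries. With the Xist term, which sets KO replicate 1 alone against WT, the calls of B3galnt2, Uqcrfs1 and Exoc2 were lost. Their log2 fold changes were then -0.42, -0.47 and -0.25. With library totals the call of Dcdc2a was lost, at an adjusted p of 0.0551 (edgeR). The nearest tested gene on each side was not called, namely Gpr137b-ps and Gm2423 at the Prl2c cluster and Gm11353 and 2610307P16Rik at the main cluster, with adjusted p of 0.191, 0.0726, 0.738 and 0.127 by edgeR.

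**Figure D4:**
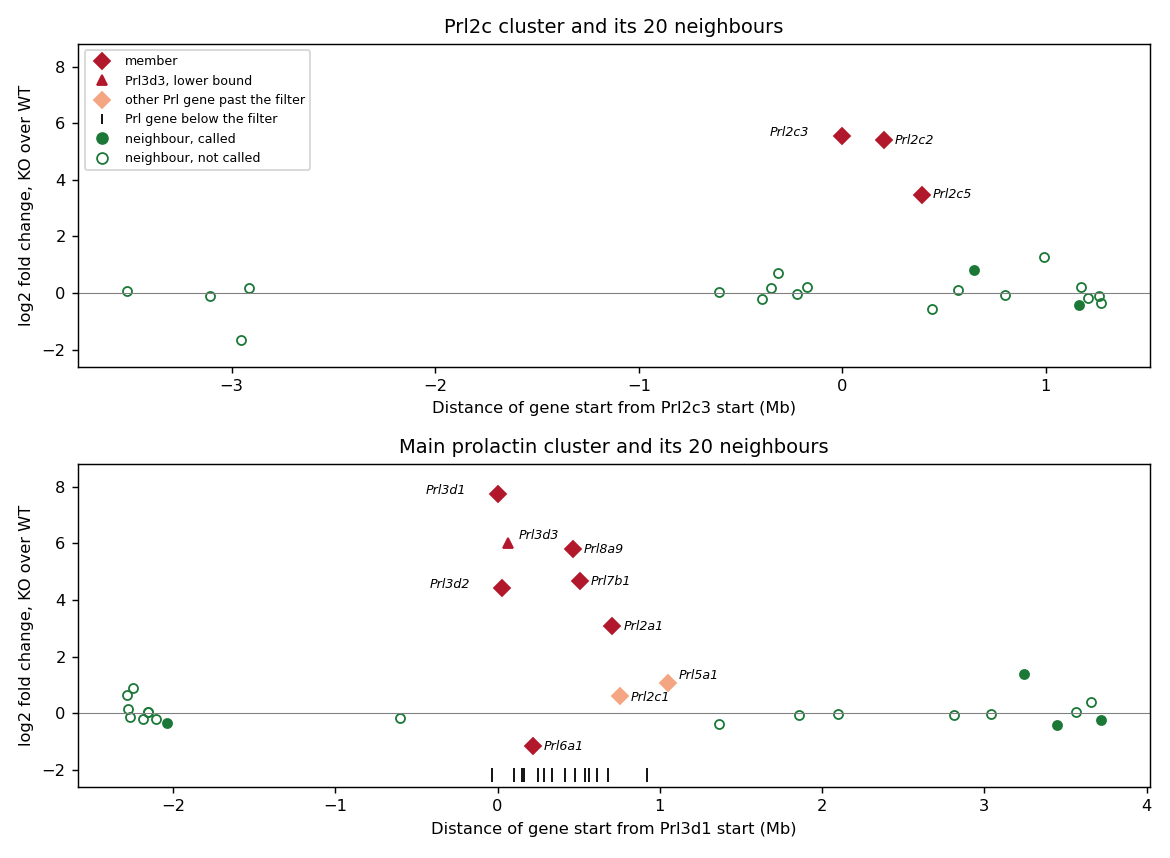
Log2 fold change, KO over WT, of family genes and of 20 neighbours at the Prl2c cluster (top) and the main cluster (bottom), by distance of each gene start in Mb from Prl2c3 or Prl3d1. Diamonds are family genes, ticks are family genes below the filter, and filled circles are called neighbours. Neighbours lie between -1.68 and 1.38, and members between -1.17 and 7.75, with Prl3d3 drawn at its lower bound of 6.03.

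Prolactin receptor signalling was described by a list of genes. This list and those that follow were drawn up with earlier results of these data known, so nothing is read from their shares of called genes. Of 16 tested, 1 rose and 0 fell (edgeR, 4 with an unadjusted p below 0.05), which is 6.25% against 21.0% of all tested genes, with a median log2 fold change of 0.08. Prlr, the receptor itself, had 2.25, 2.48 and 2.54 CPM in KO and 1.46, 1.26 and 1.30 CPM in WT, and every KO library lay above every WT library (log2 fold change 0.85 ± 0.15 SE, adjusted p = 0.00329, edgeR quasi-likelihood). With a term for Xist-positive libraries, which sets KO replicate 1 alone against WT, its call was lost, at a log2 fold change of 0.74. Igf2r, the mannose 6-phosphate receptor that binds proliferin, was not called (adjusted p = 0.239, edgeR).

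Trophoblast genes were tested as a list of 43, of which 19 passed the filter, 24 did not and 11 had no read. Among those tested 9 rose and 1 fell, 52.6% against 21.0% of all tested genes, with a median log2 fold change of 0.23. Nothing is read from that share, since the list was drawn up with earlier results of these data known. Among the 9, Hand1 also passed the filter only through KO. Ctla2a, an inhibitor of cathepsin L-like proteases, had 36.0, 26.1 and 37.2 CPM in KO and 7.27, 8.11 and 6.26 CPM in WT (log2 fold change 2.20 ± 0.14 SE, adjusted p = 9.41e-06, edgeR quasi-likelihood). Its relative Ctla2b averaged 28.2 ± 4.51 CPM in KO and 12.6 ± 1.85 CPM in WT (SD, n = 3 each) and also rose, as did Plet1. Plac8 fell, at 66.4 ± 10.5 CPM in KO and 107.4 ± 19.2 CPM in WT (SD, n = 3 each). The 8 placental cathepsin genes held 5 reads in KO and 0 in WT, and Tpbpa and Tpbpb together held 4 reads in KO and 0 in WT. Other genes of the lineage were counted in both groups. Elf5, a trophoblast stem cell factor also used in other epithelia, averaged 14.2 ± 1.98 CPM in KO and 11.2 ± 0.225 CPM in WT (SD, n = 3 each). Its call was lost on leaving out any library except KO replicate 3, at adjusted p from 0.0555 to 0.174 by edgeR. With a term for Xist-positive libraries the call of Elf5 was also lost, at a log2 fold change of 0.49 against 0.34 without it. Eomes, another such factor, had 1.52, 1.12 and 1.27 CPM in KO and 1.66, 0.857 and 0.891 CPM in WT and was not called (adjusted p = 0.588, edgeR).

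The transcription factors Hand1, Gata2 and Gata3, which act on trophoblast genes, were singled out after their values had been seen. Hand1, needed for giant cells, had 0.397, 0.252 and 0.194 CPM in KO and 0.0579, 0.0565 and 0.0932 CPM in WT (log2 fold change 1.99 ± 0.41 SE, adjusted p = 0.00697, edgeR quasi-likelihood). Hand1 passed the filter on low counts only through its KO libraries, so it had to differ and its p-value supports nothing. Gata2 averaged 27.3 ± 3.31 CPM in KO and 17.8 ± 3.26 CPM in WT (SD, n = 3 each), and Gata3 16.3 ± 2.08 CPM in KO and 11.8 ± 1.31 CPM in WT. All rose, but the call of Gata3 was lost without KO replicate 3 or WT replicate 2, at adjusted p of 0.0836 and 0.0508 by edgeR. With the Xist term the calls of Gata2 and Gata3 were lost, at log2 fold changes of 0.62 and 0.31, against 0.61 and 0.47 without it.

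Among 15 genes of AP-1 and the glucocorticoid response, 2 rose and 4 fell, which is 40% against 21.0% of all tested genes (12.0% higher and 9.08% lower), with a median log2 fold change of -0.05. The AP-1 subunits Jund (24.2 ± 2.68 CPM in KO, 13.2 ± 2.39 CPM in WT) and Fosl1 (46.8 ± 6.50 CPM in KO, 30.6 ± 5.91 CPM in WT) rose (SD, n = 3 each), by 0.88 and 0.61 on the log2 scale. Their relative Fosl2 fell by 0.26, with an adjusted p of 0.0222 by edgeR, and the call was lost on leaving out any KO library or WT replicate 2, at 0.059 to 0.141. Sgk1, a kinase induced by glucocorticoid and mineralocorticoid, averaged 23.0 ± 3.57 CPM in KO and 35.7 ± 2.64 CPM in WT (SD, n = 3 each), with an adjusted p of 0.00314 by edgeR. With the Xist term its call was lost, at a log2 fold change of -0.40 against -0.63 without it.

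**Figure D5:**
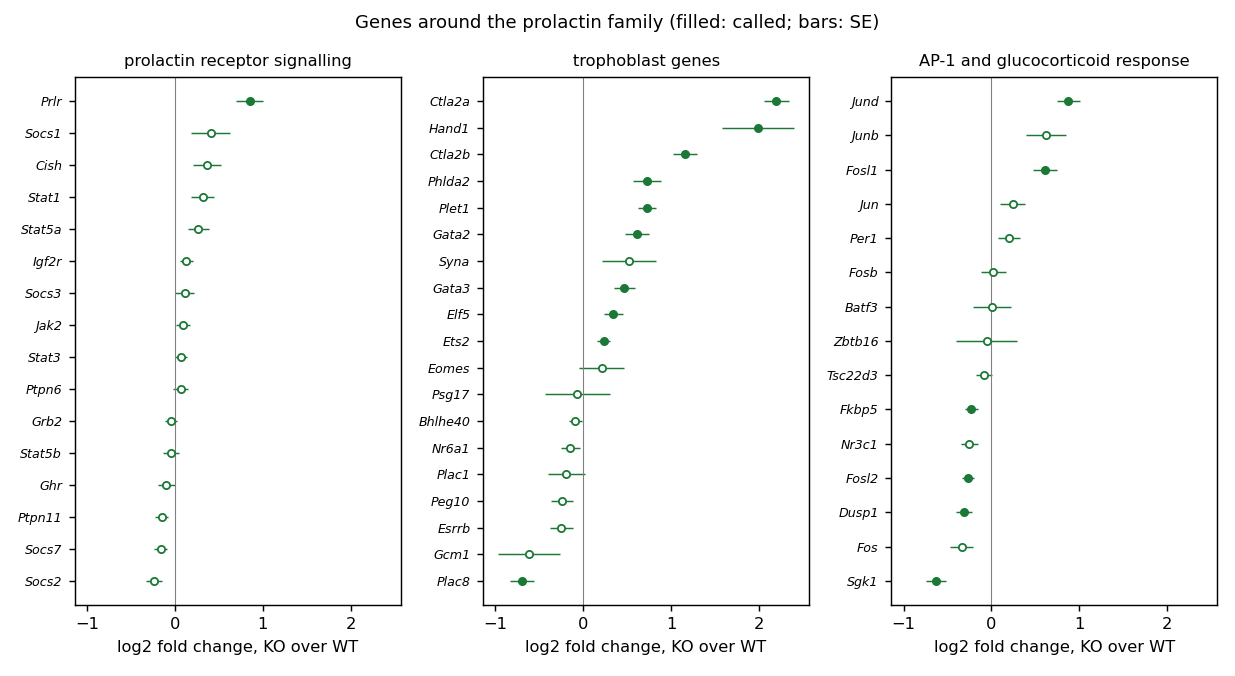
Log2 fold change, KO over WT, with its standard error, of the tested genes of prolactin receptor signalling, of trophoblast and of AP-1 and the glucocorticoid response. Filled points passed an adjusted p of 0.05 in edgeR, which is 1 of 16, 10 of 19 and 6 of 15 genes.

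Markers of the cell types of the kidney cortex were set beside these results, with 12.0% of all tested genes called higher as the background. Summed over the list, tubule epithelium markers stood at 7434 to 7506 CPM in KO and 6475 to 7513 CPM in WT, with 3 of 10 called higher, and none of the 10 was at 0. Podocyte markers stood at 171 to 206 CPM in KO and 105 to 108 CPM in WT, with 5 of 8 called higher. Endothelial markers stood at 25.7 to 35.8 CPM in KO and 16.4 to 18.4 CPM in WT, with 5 of 8 called higher, and KO replicate 1 was the highest at 1.31 times the mean of the other KO libraries. Fibroblast and pericyte markers stood at 62.9 to 116 CPM in KO and 59.6 to 82.4 CPM in WT, with 4 of 6 tested called higher, and leukocyte markers at 41.3 to 50.04 CPM in KO and 27.9 to 32.6 CPM in WT, with 3 of 7 tested called higher. Their part in the prolactin family levels was not tested.

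Genes whose levels across the 6 libraries were most like those of the members were ranked by Pearson's r of log2 CPM among 11629 tested genes. For the proliferin sum these were S1pr1, Abcb1b, Afap1l2, Rasgrf2 and Sox7 (r from 0.997 to 0.999), and for the Prl3d sum Il1rn, Arhgdib, H2-Q2, Mlph and Sox7 (r from 0.998 to 0.999). The 6 points fall into the KO and WT groups, so r includes that split and is given as a description. Il1rn, the interleukin-1 receptor antagonist, had 209, 152 and 146 CPM in KO and 59.0, 63.5 and 55.5 CPM in WT, and S1pr1, a sphingosine 1-phosphate receptor, had 2.36, 1.82 and 1.72 CPM in KO and 0.869, 0.80 and 0.766 CPM in WT. In both, KO replicate 1 was the highest library, at 1.40 and 1.33 times the mean of the other KO libraries, against 3.17 for Prl2c3 and 3.74 for Prl3d1.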

How the data were processed

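RNA of 6 cultures, 3 KO and 3 WT, was grouped by the sample titles. The authors deposited 1 table per library of raw counts by Ensembl ID, not normalized. Per the submitters' processing notes, Trimmomatic 0.38, STAR 2.7.1a and HTSeq 0.11.2 were used with mm10. Not given in the sources used here are the annotation release, strandedness and how reads that fit several genes were counted. Of 48526 genes, 48144 were matched to GENCODE release M21, and the other 382 held 0.0165% of counts.

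Counts were fitted with edgeR 4.0.16 in R 4.3.3 (quasi-likelihood test, filterByExpr, TMM scaling, genotype as the factor), with Benjamini-Hochberg adjustment over 17571 genes and a threshold of 0.05. The scripts were tested on simulated data. Alternatives were DESeq2 1.42.0, limma-voom (limma 3.58.1), other size factors, library totals, no filter, an added term for Xist-positive libraries (over 10 CPM), a replicate block and leaving out each library. CPM values are TMM-scaled. Counting intervals are exact at 95% and cover counting error only, and the floor is 3 counts. Depth was 86078636 to 106974842 reads per library. Replicates differed by more than sampling noise (chi-square per degree of freedom 22.7 to 77.1), so none was a copy.

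The members and lists were chosen with earlier results of these data known. The text names all 10 members, the other family genes past the filter, up to 4 called genes of each list by smallest adjusted p (2 abundant ones where none was called), called and nearest neighbours, the 5 genes most like each of 2 sums with a mean of at least 1 CPM, and Setd2, Xist and Ddx3y. Promoter windows came from RefSeq on GRCm38.p6. Other genes named are said to have been singled out, or bear on a promoter window or a role of the family.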

Additional observations from a re-analysis of the deposited data

How the results depend on the processing

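The subfamily sums and the fold changes of the 9 members other than Prl3d3 kept their direction under every alternative run for them. That was fixed in advance and supports nothing, since the genes were selected on this contrast and their KO and WT libraries did not overlap. For Prl3d3, at 0 in WT, a bound is given in place of the fitted fold, and that bound was 29.9-fold to 89.9-fold on leaving out 1 library. Genes called higher in KO numbered 2102 (1228 to 2142 on leaving out 1 library, lowest without KO replicate 1) and lower 1596 (455 to 1624). A term for Xist-positive libraries, which leaves KO replicate 1 as the one KO library to set against WT, gave 878 and 285 genes. With that term the calls were 0 of the other prolactin family genes (2 at an unadjusted p below 0.05, edgeR), 0 of prolactin receptor signalling (1 unadjusted), 5 trophoblast, 2 AP-1 and glucocorticoid and 3 neighbouring genes. Against 1 such family gene called by edgeR, DESeq2 called 0 (1 unadjusted) and no filter gave 2, the second being Prl7d1, and no filter gave 10 neighbouring genes against 6. On leaving out 1 library the calls ranged over 0 to 1 family genes (Prl7a1 without KO replicate 2 and Prl7d1 without WT replicate 1, not Prl5a1), 1 to 2 signalling genes, 7 to 9 trophoblast genes, 3 to 8 AP-1 and glucocorticoid genes and 2 to 7 neighbouring genes. The log2 ratio of the Prl3d sum, 6.52, was 7.81 for the single copy Prl3d1 and 5.57 to 6.89 on leaving out 1 library, that of the Prl2c sum 4.67 to 5.76 and that of the sum of the other 4 genes, 3.04, ranged over 2.13 to 3.38, each lowest without KO replicate 1. Replicate numbers are shared between the groups but do not pair the samples: deviations of same-numbered libraries correlated at 0.04, -0.15 and 0.03, and not every library matched its own number best. The replicate block gave 2139 genes higher and 1455 lower. The causes of these shifts were not tested. Depth limits the WT values of the Prl3d genes, Prl8a9, Prl7b1 and Prl2a1, which rest on at most 16 reads a library.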
